A study of Homo sapiens with 12 samples.

Results

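The 10 genes described here belong to the BCL2 family, which sets the threshold for death through the mitochondrion. They are *BCL2*, *BCL2L1*, *MCL1* and *BCL2A1*, which protect cells, *BAK1*, which opens the outer mitochondrial membrane, and *BCL2L11*, *BID*, *BIK*, *BMF* and *HRK*, which encode BH3-only death signals. The members were picked by symbol from the 26481 genes with a count in every library, and all 10 were found. Of these, 8 passed the filter on low counts and were tested, and *BIK* and *HRK* did not.

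RNA was sequenced from the HEL line, named HEL 646C in the labels, an established human erythroleukemia line used as a model of acute myeloid leukemia, in a DNA-barcoded pool of many clones, so that each library is a mixture of clones. Cells were left without drug in medium with DMSO (NT, n = 2), or received 1.8 µM of the anthracycline doxorubicin (Doxo, n = 3), doxorubicin with 6 µM of the nucleoside analogue cytarabine (Doxo+Cyta, n = 3), or both with 0.1 µM of the DNA methyltransferase inhibitor decitabine (Doxo+Cyta+DAC, n = 4). Drugs were present for 72 to 74 h, after which live cells were enriched on Ficoll and left to grow back for about 30 days until the seeded number was reached again, a stage called relapse. The relapse libraries therefore show regrown survivors and not cells in the midst of drug killing, beside NT cells that received no drug. In all of these bulk samples a smaller share of cells with a transcript and less of it per cell cannot be told apart.

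Pro-survival proteins of this family bind and restrain the pore formers BAX and BAK and also capture BH3-only proteins. BH3-only proteins are switched on by stress, by loss of growth signals or by caspases, and once they outnumber the free pro-survival proteins the pores open and cytochrome c escapes to start the caspase cascade. Cells of the erythroid and megakaryocytic lineages are known to lean on BCL-XL, the product of *BCL2L1*, while many myeloid leukemias lean on BCL2 or MCL1.

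Library totals ran from 12763582 to 19106235 counts, so 3 counts, taken as the floor of detection for counting error only, equal 0.157 to 0.235 CPM (counts per 1000000 of the library). All 8 erythroid markers examined had a median above 1 CPM, as did 3 of 6 megakaryocytic markers, with *GP1BB*, *PF4* and *PPBP* at or under it. Of the T-cell markers *CD3D* and *CD3E* were at or under 1 CPM and *CD2* was above it, and their sum ran from 26.6 to 27.4 CPM in NT, 46.8 to 55.7 CPM in Doxo, 35.6 to 51.8 CPM in Doxo+Cyta and 19.9 to 43.7 CPM in Doxo+Cyta+DAC. Of the monocyte markers *CD14* and *FCGR1A* were at or under 1 CPM and *CSF1R* was above it, with a sum of at most 6.67 CPM, and all 4 stromal markers were at or under 1 CPM. The summed megakaryocytic markers lay at 1080 to 1330 CPM in Doxo+Cyta+DAC and at 1510 to 1940 CPM in the other 8 libraries, and the part of these marker differences in the results below was not tested. Replicate 4 of Doxo and replicate 20 of Doxo+Cyta stood apart from their groups, with root-mean-square log2 distances from the other replicates of 0.50 and 0.54 against 0.33 to 0.38 for the remaining libraries of these groups. Of the 34 called differences of named genes that used Doxo replicate 4, 33 were called without it, the exception being *CYCS* in Doxo+Cyta over Doxo. Of the 27 that used Doxo+Cyta replicate 20, 25 were called without it, the exceptions being *BCL2A1* and *BAD* in Doxo+Cyta+DAC over Doxo+Cyta. None took the other sign, and only *TNFRSF10B* in Doxo+Cyta+DAC over Doxo+Cyta moved by over 1.5 times, from 2.38 to 3.02 on the log2 scale without replicate 20. Both sets of called differences include *BCL2A1* and *BCL2L15*, which passed the filter on low counts only through some of the groups. The labels name no batch.

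The promoters of 4 members are printed because they show how different the start regions of these genes are in CpG content, the dinucleotide that DNA methyltransferases modify and decitabine acts on. *BMF* and *BID* were picked for RNA that differed in opposite directions in Doxo+Cyta+DAC from the other relapses and for windows rich and poor in CpG at the start used. A pair picked in this way shows no link between CpG and direction, which was not tested. *BAK1*, with 5 CpG, and *BCL2L11*, with 34, were not called against either relapse. *BCL2L11* is shown because it had the narrowest range of the 8 tested members, and *HRK* as the member with no count at all. Each line gives the 250 bases before the RefSeq start nearest to the deposited gene end, 5′ to 3′ along the gene, with CG in capitals. RefSeq lists 2 starts for *BMF* and 5 for *BID*, and CpG at their other starts was not counted.
BMF (GRCh38.p14, chr15:40108880-40109129, minus strand): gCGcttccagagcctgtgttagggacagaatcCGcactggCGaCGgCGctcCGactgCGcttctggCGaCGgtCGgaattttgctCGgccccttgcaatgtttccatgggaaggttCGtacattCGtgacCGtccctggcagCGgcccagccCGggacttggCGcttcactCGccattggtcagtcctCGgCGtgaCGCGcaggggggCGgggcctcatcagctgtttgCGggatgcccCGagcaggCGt
BCL2L11 (GRCh38.p14, chr2:111120664-111120913, plus strand): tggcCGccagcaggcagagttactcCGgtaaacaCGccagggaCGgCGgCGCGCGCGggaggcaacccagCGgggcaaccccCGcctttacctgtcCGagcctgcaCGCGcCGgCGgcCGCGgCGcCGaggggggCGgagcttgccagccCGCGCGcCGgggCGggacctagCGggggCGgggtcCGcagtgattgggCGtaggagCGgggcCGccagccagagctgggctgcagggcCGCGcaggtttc
BID (GRCh38.p14, chr22:17774666-17774915, minus strand): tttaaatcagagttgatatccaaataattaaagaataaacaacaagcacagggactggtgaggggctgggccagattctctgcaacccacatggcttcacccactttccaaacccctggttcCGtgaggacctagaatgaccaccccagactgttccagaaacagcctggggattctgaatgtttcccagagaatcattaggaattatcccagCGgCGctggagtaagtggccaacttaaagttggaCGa
HRK (GRCh38.p14, chr12:116881442-116881691, minus strand): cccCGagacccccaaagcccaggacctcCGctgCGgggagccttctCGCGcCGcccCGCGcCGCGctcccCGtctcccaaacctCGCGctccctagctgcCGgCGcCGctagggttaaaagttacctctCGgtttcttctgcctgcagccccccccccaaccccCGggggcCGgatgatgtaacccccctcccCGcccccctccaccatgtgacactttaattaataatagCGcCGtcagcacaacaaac
RefSeq promoters were found for 8 of the 10 members, *MCL1* and *BIK* having none in the table used. The *BMF* window held 26 CpG, more than 80.4% of the 34788 RefSeq windows of this length, whose median was 11. *BCL2L11* held 34 CpG, more than 93.2% of windows, and *HRK* held 22, more than 72%. *BCL2* held 24 and *BCL2L1* 12, whereas *BAK1* held 5, *BID* 4 at the one of its 5 listed starts nearest to the deposited gene end, and *BCL2A1* 2. In the printed *BCL2L11* window the FOXO motif GTAAACA, searched on both strands, starts 223 bases before the gene, and 2.98% of all windows hold it. The STAT motif TTCNNNGAA occurs in 6.57% of windows and, among the matched members, in *BCL2A1* alone, 168 bases before its start. These letters describe the windows and say nothing of binding, and methylation was not analysed here.

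In TPM, which divides counts by exon length before scaling each library to a sum of 1000000 and so lets genes be compared, *MCL1* and *BCL2L1* were far above the other members. *MCL1* had a median of 171 TPM over the 12 libraries, with a range of 140 to 343, and *BCL2L1* had a median of 157 TPM, with a range of 136 to 191. Their ranges overlapped, and their order is not fixed, because 930 of the 2559 exon bases of *BCL2L1* (36.3%) are shared with the antisense gene *ABALON* and fragments there were not counted. Divided by the unshared bases alone, the *BCL2L1* median was 246 TPM. *BID* followed at 42.2 TPM (26.6 to 71.2), *BCL2L11* at 27.2 TPM (20.5 to 35.5) and *BAK1* at 27.1 TPM (23.8 to 30.5), and these 3 ranges overlapped. *BMF* had a median of 3.42 TPM (2.11 to 7.44), *BCL2* of 1.2 TPM (0.907 to 2.52) and *BCL2A1* of 0.904 TPM (0.311 to 2.68), again with neighbours overlapping. *BIK*, whose product sits at the endoplasmic reticulum, had 17 counts in all and at most 4 in a library. *HRK* had 0 counts in each of the 12 libraries, which allows up to 0.235 CPM in the shallowest. HEL therefore held very different amounts of the pro-survival transcripts, with the *BCL2* level below that of *MCL1* and *BCL2L1* in every library.

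**Figure D1:**
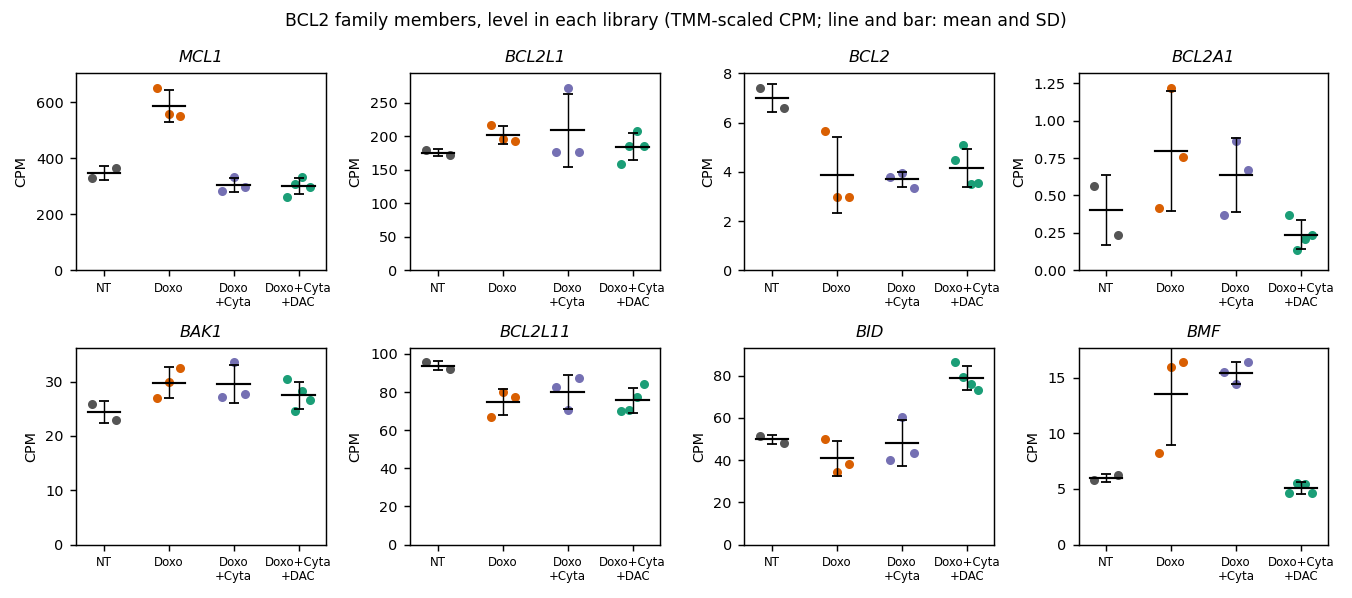
Level of the 8 members that passed the filter, in CPM (vertical axis from 0) for each library of the 4 groups (horizontal axis), with the group mean as a line and its SD as a bar. *MCL1* stands at 552 to 651 CPM in Doxo against 261 to 364 CPM elsewhere, *BID* is highest in the 4 Doxo+Cyta+DAC libraries, and *BMF* is high in Doxo and Doxo+Cyta but at 8.24 CPM in Doxo replicate 4.

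Among the pro-survival genes, *MCL1* separated the Doxo relapse from every other group. MCL1 is a short-lived protein that restrains BAK and BIM and whose supply depends on continued synthesis. Levels of *MCL1*, as CPM after TMM scaling, which evens out differences in make-up between libraries, were 328 and 364 in NT, 651, 556 and 552 in Doxo, 284, 331 and 297 in Doxo+Cyta and 261, 309, 332 and 298 in Doxo+Cyta+DAC. All 3 Doxo libraries lay above the 9 others, and these 9 overlapped. The rise in Doxo over NT was 0.76 on the log2 scale (SE 0.13, 1.7-fold, adjusted p = 0.0038, edgeR quasi-likelihood test with Benjamini-Hochberg adjustment over 14164 genes, the test behind every adjusted p below). Without Doxo replicate 4 it was 0.65 (adjusted p = 0.00412). Without NT replicate 1 it was 0.68 and missed the threshold of 0.05. That fit had 1 NT library and far fewer calls over all genes. Against Doxo, *MCL1* was lower in Doxo+Cyta by a log2 difference of -0.95 (SE 0.11, adjusted p = 0.00104). The difference of Doxo+Cyta+DAC from Doxo was -0.97 (SE 0.10, adjusted p = 4.17e-06). Between Doxo+Cyta+DAC and Doxo+Cyta the difference was -0.02 with a 95% interval of -0.24 to 0.20, and neither group was called against NT (adjusted p = 0.164 and 0.426).

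*BCL2L1* did not pass the test in any of the 6 comparisons. Its levels were 179 and 172 CPM in NT, 217, 195 and 192 CPM in Doxo, 177, 272 and 177 CPM in Doxo+Cyta and 159, 185, 208 and 185 CPM in Doxo+Cyta+DAC. The value of 272 CPM came from Doxo+Cyta replicate 20, one of the libraries that stood apart, the Doxo libraries lay above both NT libraries, and the other groups overlapped. In Doxo+Cyta+DAC over NT the log2 difference was 0.07 with a 95% interval of -0.28 to 0.42, and it turned to -0.03 with library totals in place of the TMM scaling. In Doxo+Cyta over NT it was 0.25, and -0.01 without replicate 20. These counts leave out fragments in the part shared with *ABALON*, an antisense RNA chosen for mention after its values were seen, and reads of either strand were counted alike, so RNA from the pair cannot be told apart there. *ABALON* had 163 to 291 counts in the Doxo+Cyta+DAC libraries and 62 to 116 in the 8 others, a log2 difference of 1.47 over NT (SE 0.29, adjusted p = 0.000987). Since strand was ignored, how much of these counts came from the antisense strand is not known.

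*BCL2*, the founding member and the target of venetoclax, was highest in NT. Its levels were 7.41 and 6.61 CPM in NT, 5.65, 2.97 and 2.97 CPM in Doxo, 3.77, 3.94 and 3.36 CPM in Doxo+Cyta and 4.47, 5.09, 3.52 and 3.56 CPM in Doxo+Cyta+DAC, from 45 to 144 counts. Both NT libraries lay above all 10 relapse libraries. The test passed in Doxo+Cyta+DAC over NT only (log2 difference -0.75, SE 0.26, adjusted p = 0.0255), and the call was lost without NT replicate 1 (adjusted p = 0.157), NT replicate 2 (0.0746), or Doxo+Cyta+DAC replicate 32 (0.0629) or 33 (0.058). In Doxo over NT the difference was -0.87 (adjusted p = 0.057), and without Doxo replicate 4 it was -1.27 and passed (adjusted p = 0.0034). In Doxo+Cyta over NT it was -0.93 (adjusted p = 0.0939), so the 3 relapses gave alike sizes against the same 2 NT libraries, which they share. Among relapses, the log2 difference of Doxo+Cyta+DAC was 0.11 over Doxo (95% interval -0.40 to 0.63) and 0.17 over Doxo+Cyta (-0.35 to 0.69).

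*BCL2A1*, an NF-kB target that encodes BFL1/A1, was near the floor. It had 11 and 4 counts in NT, 6, 21 and 12 in Doxo, 6, 13 and 11 in Doxo+Cyta and 6, 2, 4 and 3 in Doxo+Cyta+DAC. The libraries that carried it past the filter of 0.622 CPM were 2 of Doxo and 2 of Doxo+Cyta and none of the other groups, so in the filtered fit a lower value in Doxo+Cyta+DAC was set by the filter. There its log2 difference in Doxo+Cyta+DAC was -1.73 against Doxo (SE 0.51) and -1.37 against Doxo+Cyta (SE 0.53), given as a description. In the fit with no filter on low counts, which *BCL2A1* entered whatever its level, these were -1.71 (adjusted p = 0.00983) and -1.37 (adjusted p = 0.0439). The calls rested on few counts, and in the filtered fit the first was lost without Doxo replicate 5 and the second without Doxo+Cyta replicate 20 or 22 or Doxo+Cyta+DAC replicate 31, 32 or 33, and with DESeq2.

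*BAK1* encodes the pore former BAK, which sits in the outer mitochondrial membrane, and was one of the steadiest members. Its levels were 25.8 and 22.9 CPM in NT, 27 to 32.6 CPM in Doxo, 27.2 to 33.6 CPM in Doxo+Cyta and 24.6 to 30.5 CPM in Doxo+Cyta+DAC. No comparison passed the test, and the widest 95% interval of its log2 difference, in Doxo over NT, ran from -0.03 to 0.61. The range of *BAK1* over the 12 libraries was 0.55 on the log2 scale, smaller than in all but 6.78% of tested genes.

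*BCL2L11* encodes BIM, a BH3-only protein that can bind every pro-survival member and that FOXO factors are known to switch on. Its levels were 95.7 and 92.1 CPM in NT, 66.9, 79.9 and 77.2 CPM in Doxo, 82.5, 70.4 and 87.3 CPM in Doxo+Cyta and 70.3, 70.5, 77.2 and 84.3 CPM in Doxo+Cyta+DAC. Both NT libraries were above the 10 relapse libraries, but by a small margin. The log2 difference passed the test in Doxo+Cyta+DAC over NT alone, at -0.31 (SE 0.12, adjusted p = 0.0484), and that call was lost on leaving out either NT library (adjusted p = 0.213 and 0.137) or Doxo+Cyta+DAC replicate 30, 31 or 32 (0.0729 to 0.108). In Doxo over NT the difference was -0.33 (adjusted p = 0.115). Over the 12 libraries its log2 range was 0.51, and 5.13% of tested genes had a smaller one against a median of 1.25.

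*BID* was the only member called higher in Doxo+Cyta+DAC than in NT, Doxo and Doxo+Cyta. BID is cut by caspase 8 into an active fragment and so links death receptors to the mitochondrion. Its levels were 51.3 and 48.3 CPM in NT, 49.8, 34.2 and 38.3 CPM in Doxo, 39.9, 60.4 and 43.5 CPM in Doxo+Cyta and 86.4, 79.2, 75.9 and 73.3 CPM in Doxo+Cyta+DAC. The lowest Doxo+Cyta+DAC library was above the highest of the 8 others, 60.4 CPM in Doxo+Cyta replicate 20. The log2 difference was 0.66 over NT (SE 0.18, 1.58-fold, adjusted p = 0.0074), 0.95 over Doxo (SE 0.16, adjusted p = 0.000152) and 0.72 over Doxo+Cyta (SE 0.16, adjusted p = 0.00124). Without the libraries that stood apart the last 2 were 1.13 (without Doxo replicate 4, adjusted p = 5.68e-05) and 0.91 (without Doxo+Cyta replicate 20, adjusted p = 9.49e-05). The call against NT was lost without NT replicate 2 (0.61, adjusted p = 0.0725). The 3 comparisons share the Doxo+Cyta+DAC libraries and are not independent.

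*BMF* followed the opposite course and was high in the relapses without decitabine. BMF is a BH3-only protein held at the cytoskeleton and released when cells lose anchorage or growth signals. Its levels were 5.76 and 6.25 CPM in NT, 8.24, 16 and 16.4 CPM in Doxo, 15.5, 14.4 and 16.4 CPM in Doxo+Cyta and 4.59, 5.57, 5.46 and 4.67 CPM in Doxo+Cyta+DAC. All 6 libraries of Doxo and Doxo+Cyta were above the 6 others, with Doxo replicate 4 well below the other 5. *BMF* rose in Doxo over NT by 1.18 on the log2 scale (SE 0.25, 2.26-fold, adjusted p = 0.0118). Its rise over NT in Doxo+Cyta was 1.36 (SE 0.25, 2.57-fold, adjusted p = 0.0276). Without replicate 4 the Doxo value was 1.40 (adjusted p = 0.000344), and without replicate 20 the Doxo+Cyta value was 1.38 (adjusted p = 0.0299).

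The calls of *BMF* against NT were lost when some other libraries were left out, in fits that called fewer of all genes. In Doxo over NT the log2 difference was 1.11 and 1.23 without NT replicate 1 or 2, which left 1 NT library. Without Doxo replicate 5 or 6 the adjusted p was 0.0567 and 0.056. In these fits 3.27% and 3.53% of all genes were called, against 10.7% with every library. In Doxo+Cyta over NT the log2 difference was 1.30 and 1.42 without NT replicate 1 or 2. The adjusted p was 0.0635 and 0.06 without Doxo+Cyta replicate 19 or 22, and 0.0639 when the 2 groups were fitted alone. These last fits called 0.184%, 0.347% and 0.0951% of all genes, against 1.46% with every library and group. The direction stayed the same in each. Lower levels in Doxo+Cyta+DAC were called without such a dependence, with log2 differences of -1.42 against Doxo (SE 0.21, 2.67-fold, adjusted p = 5.46e-05) and -1.60 against Doxo+Cyta (SE 0.21, 3.03-fold, adjusted p = 1.65e-05). Against NT the Doxo+Cyta+DAC level of *BMF* was not called, at -0.24 with a 95% interval of -0.76 to 0.28.

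**Figure D2:**
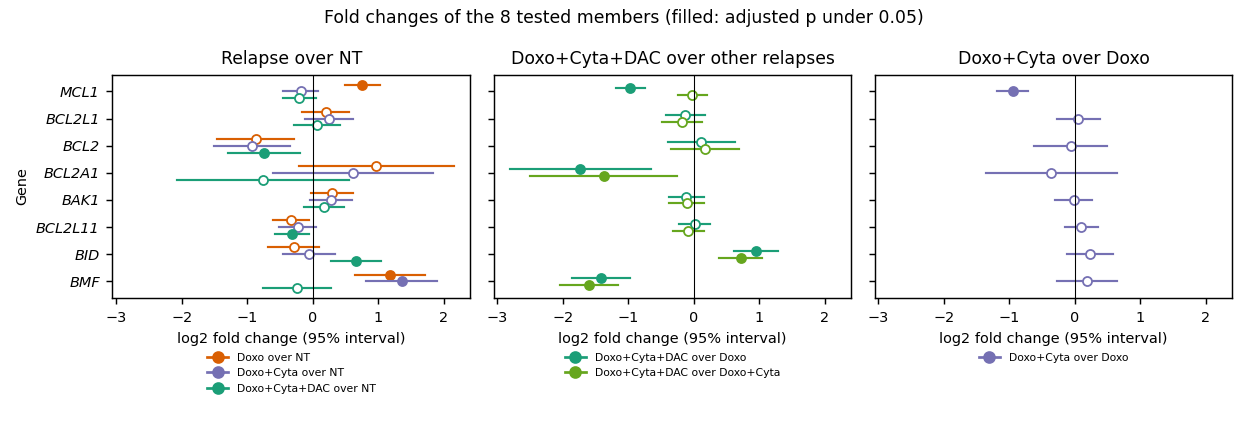
Log2 fold change (horizontal axis) of each tested member (vertical axis) with its 95% interval, in the relapses over NT, in Doxo+Cyta+DAC over the other relapses, and in Doxo+Cyta over Doxo; filled points have an adjusted p under 0.05. *BID* lies to the right and *BMF* to the left of 0 in the middle panel, at 0.95 and -1.42 over Doxo, the filled points of *BCL2A1* have a direction that the filter set, and *BCL2L1* and *BAK1* cross 0 in every comparison.

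Counted over the family, the members were called at about the rate of the other genes or below it in the comparisons with many calls. *BCL2A1* is left out of these counts because the filter set its direction, which leaves 7 tested members. In Doxo+Cyta+DAC over NT, 3 of 7 were called (*BID* higher, *BCL2* and *BCL2L11* lower) where 48.7% of the 14164 genes tested were. Over Doxo, 3 of 7 were called (*BID* higher, *MCL1* and *BMF* lower) against 59.5% of all, and over Doxo+Cyta 2 of 7 (*BID* higher, *BMF* lower) against 60.3%. Few genes were called between the other groups. In Doxo over NT 2 of 7 members were called (*MCL1*, *BMF*, both higher) against 10.7% of all genes, in Doxo+Cyta over NT 1 of 7 (*BMF*, higher) against 1.46%, and in Doxo+Cyta over Doxo 1 of 7 (*MCL1*, lower) against 3.4%. The median absolute log2 difference of the 7 members was 0.24 in Doxo+Cyta+DAC over NT, beside 0.50 over all tested genes. Over Doxo+Cyta it was 0.17 beside 0.58, over Doxo 0.13 beside 0.57, and in Doxo over NT 0.33 beside 0.28. Nothing particular to the family is read from these counts and medians.

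**Figure D3:**
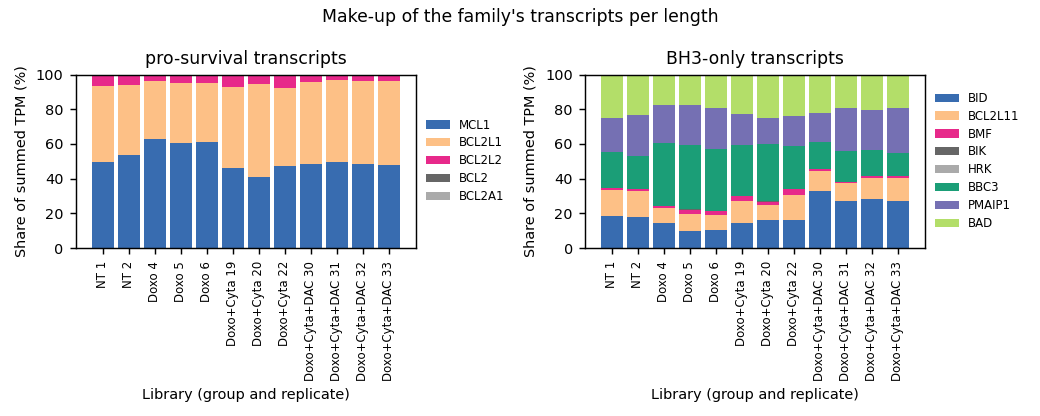
Share of the summed TPM (vertical axis, percent) taken by each of 5 pro-survival genes (left) and 8 BH3-only genes (right) in each library (horizontal axis), members and the other core genes *BCL2L2*, *BBC3*, *PMAIP1* and *BAD* together. *MCL1* holds 60.8% to 63% of the pro-survival sum in Doxo and at most 53.5% elsewhere, and *BID* holds 27% to 32.9% of the BH3-only sum in Doxo+Cyta+DAC and at most 18.7% elsewhere.

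Expressed as shares, the make-up of the transcripts differed between groups on both sides of the family. *MCL1* made up 61.7% ± 1.18 (SD, n = 3) of the summed TPM of the 4 pro-survival members and *BCL2L2* in Doxo, beside 51.7% ± 2.58 (n = 2) in NT, 44.9% ± 3.34 (n = 3) in Doxo+Cyta and 48.6% ± 0.644 (n = 4) in Doxo+Cyta+DAC. Over the 4 members alone, the *MCL1* shares were 64.1%, 54.6%, 47.8% and 50.2% in Doxo, NT, Doxo+Cyta and Doxo+Cyta+DAC, and with *BCL2L1* divided by its unshared bases they were 53.4%, 43.6%, 37% and 39.2%. Doxo was highest under both lengths. On average *MCL1* led in Doxo and *BCL2L1* in Doxo+Cyta under both, whereas in NT and Doxo+Cyta+DAC the leading gene changed with the length. With the full length, however, the Doxo+Cyta lead of *BCL2L1* came from replicate 20, at 191 TPM against 146 TPM for *MCL1*. Both genes were at 149 TPM in replicate 19, and *MCL1* was ahead in replicate 22 (158 against 150 TPM).

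The BH3-only transcripts were summed over the 5 members and *BBC3*, *PMAIP1* and *BAD*. Of this sum *BID* took 28.8% ± 2.8 (n = 4) in Doxo+Cyta+DAC, beside 18.3% ± 0.472 (n = 2) in NT, 11.6% ± 2.64 (n = 3) in Doxo and 15.7% ± 1.23 (n = 3) in Doxo+Cyta. *BBC3* took 36.3% ± 0.894 in Doxo and 15.5% ± 1.82 in Doxo+Cyta+DAC, and *BMF* took at most 3.42% in any library. The sum itself was highest in Doxo (276 ± 6.79 TPM), followed by NT (237 ± 6.22), Doxo+Cyta (231 ± 16.6) and Doxo+Cyta+DAC (224 ± 8.56), the last 3 with overlap. The order depends on which genes are summed, since over the 5 members alone it was lowest in Doxo (62.9 ± 3.83 TPM) and Doxo+Cyta (69.6 ± 3.49), then 81.7 ± 0.914 for NT and 93.4 ± 3.89 for Doxo+Cyta+DAC. These are descriptions of RNA and carry no test, and many BH3-only proteins are held back after translation.

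The genes whose levels ran most like *BMF* over the 12 libraries were *SCAMP2* (Pearson r = 0.99 of log2 CPM), *CD244* (0.97) and *PCBP2* (0.97). For *BCL2A1*, whose direction the filter had set, they were *DAPK3*, *TMED3* and *FAM174A*, each at r = 0.92, with the few counts behind *BCL2A1* in mind. These values describe 12 libraries of 4 groups, which share those group differences, and no p is given. These members were taken because they had an adjusted p under 0.05 and a fold over 2 in at least 1 comparison of the filtered fit.

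The rest of the family was examined as a list of 14 genes, of which 11 passed the filter. In Doxo+Cyta+DAC over Doxo 8 of these 11 were called (3 higher, 5 lower) against 59.5% of all genes, over Doxo+Cyta 8 (3 higher, 5 lower) against 60.3% and over NT 5 (2 higher, 3 lower) against 48.7%. The higher genes over Doxo and over Doxo+Cyta include *BCL2L15*, which no Doxo or Doxo+Cyta library carried past the filter. In Doxo over NT 2 rose (*BBC3*, *BNIP3*) and none fell, against 10.7%. Leaving out either NT library removed both of these calls, in fits with 1 NT library and far fewer calls over all genes. There the log2 difference of *BNIP3* was 0.84 and 0.70 without NT replicate 1 or 2, beside 0.77 with both. *BAX*, the other pore former, was highest in Doxo+Cyta+DAC, with levels of 45.1 and 41.9 CPM in NT, 47.8, 28.5 and 30.2 CPM in Doxo, 35.4, 58.2 and 32.4 CPM in Doxo+Cyta and 79.4, 93.5, 80.7 and 68.3 CPM in Doxo+Cyta+DAC. Its log2 difference in Doxo+Cyta+DAC was 0.89 over NT (SE 0.24, adjusted p = 0.00835), 1.18 over Doxo (SE 0.22, adjusted p = 0.000337) and 0.94 over Doxo+Cyta (SE 0.21, adjusted p = 0.00169). Leaving out NT replicate 1 or 2 took the call over NT past the threshold (adjusted p = 0.052 and 0.0746). So of the 2 pore formers, *BAX* was called and *BAK1* was not, although the difference between them was not tested.

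*BBC3*, which encodes the p53 target PUMA, was highest in Doxo, at 97.4 to 104 CPM against 40.4 and 44.1 CPM in NT. The log2 difference was 1.26 (SE 0.22, 2.39-fold, adjusted p = 0.00449). It was 1.32 and 1.19 without NT replicate 1 or 2, and missed the threshold in these fits with 1 NT library. In Doxo+Cyta+DAC, at 28.7 to 41.3 CPM, *BBC3* was lower than in Doxo by -1.59 (SE 0.17, adjusted p = 5.19e-06) and than in Doxo+Cyta by -1.07 (SE 0.17, adjusted p = 0.000124). *PMAIP1*, which encodes NOXA, the partner that marks MCL1 for decay, had 53.8 to 64.4 CPM in Doxo, 33.4 to 40 CPM in Doxo+Cyta and 31.4 to 52.3 CPM in Doxo+Cyta+DAC. Against Doxo its log2 difference was -0.68 in Doxo+Cyta (SE 0.17, adjusted p = 0.0414), while that in Doxo+Cyta+DAC was -0.38 (SE 0.15, adjusted p = 0.044). Both calls were close to the threshold. The first was lost without Doxo replicate 5 or 6 or Doxo+Cyta replicate 19 or 22 (adjusted p = 0.106 to 0.161), with upper-quartile scaling (0.0545) and with the 2 groups fitted alone (0.0665). The second was lost without Doxo replicate 5 or 6 or Doxo+Cyta+DAC replicate 30 or 32 (0.0715 to 0.165), with no filter on low counts (0.0514) and with the 2 groups fitted alone (0.0602).

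*BCL2L2*, which encodes the pro-survival protein BCL-W, was at 13.4 to 19.3 CPM in Doxo+Cyta+DAC and at 27.6 to 40.1 CPM in the 8 other libraries. Its log2 difference was -0.93 against NT (SE 0.16, adjusted p = 0.00036), -0.91 against Doxo (SE 0.14, adjusted p = 0.000108) and -1.06 against Doxo+Cyta (SE 0.14, adjusted p = 2.51e-05). Of its exon bases 18.1% are shared with the readthrough gene *BCL2L2-PABPN1* and were not counted. *BAD*, a BH3-only gene under growth factor control, was called only in Doxo+Cyta+DAC over Doxo+Cyta (-0.40, SE 0.14, adjusted p = 0.0231), and was at -0.20 without Doxo+Cyta replicate 20 (adjusted p = 0.133), with the call also lost without Doxo+Cyta+DAC replicate 32 (0.0503) or 33 (0.0546).

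The hypoxia-linked mitophagy genes *BNIP3* and *BNIP3L*, distant members that carry a BH3-like stretch, were lower in Doxo+Cyta+DAC than in each other group. *BNIP3* was at 116 to 195 CPM in Doxo+Cyta+DAC against 323 and 356 CPM in NT and 459 to 649 CPM in the other relapses. Its log2 difference was -1.26 against NT (SE 0.18, adjusted p = 9.41e-05), -2.03 against Doxo (SE 0.17, adjusted p = 5.76e-07) and -1.83 against Doxo+Cyta (SE 0.17, adjusted p = 7.87e-07). *BNIP3L* was lower as well, by -0.90, -1.49 and -1.35 against the same groups. *BCL2L15*, with 3 to 23 counts, was at most 0.582 CPM in Doxo and 0.367 CPM in Doxo+Cyta, under the filter of 0.622 CPM. Only NT and Doxo+Cyta+DAC libraries carried it past, so a higher value in Doxo+Cyta+DAC than in these groups was favoured by the filter. Its log2 difference in Doxo+Cyta+DAC was 2.03 over Doxo+Cyta (SE 0.53) and 1.24 over Doxo, the latter with overlapping groups, given as a description. In the filtered fit the call over Doxo was lost without Doxo replicate 6 or Doxo+Cyta+DAC replicate 30 or 31.

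**Figure D4:**
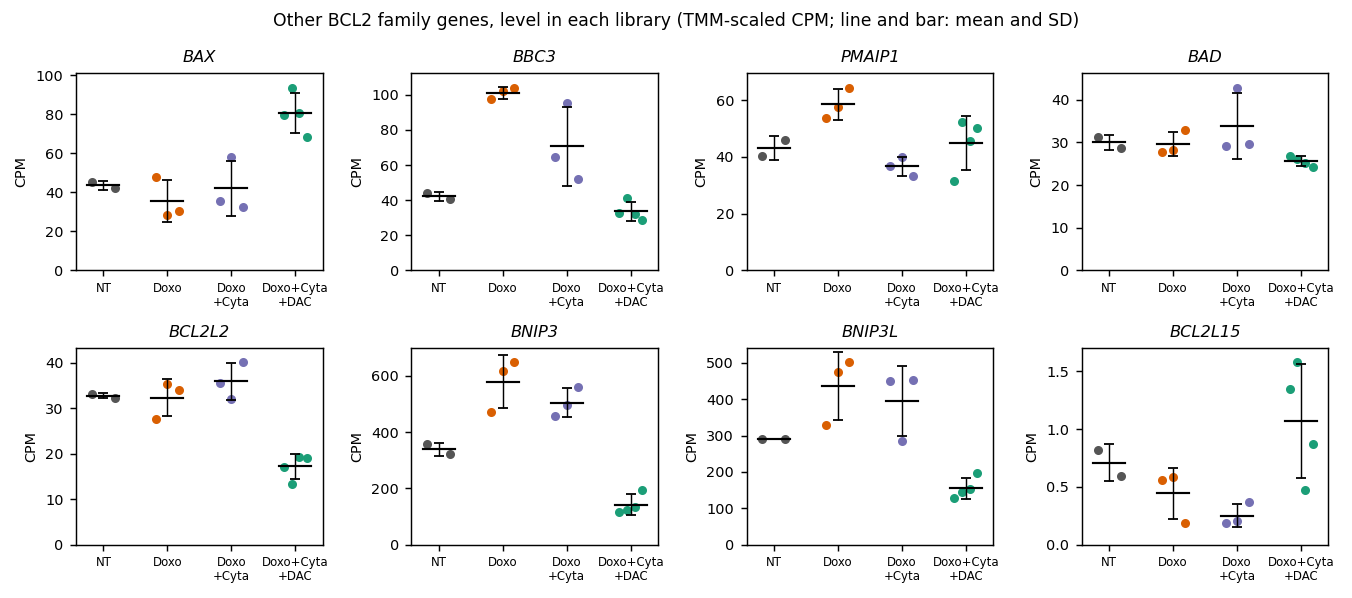
Level in CPM (vertical axis from 0) of 8 further BCL2 family genes in each library of the 4 groups (horizontal axis), with group mean and SD. *BAX* is highest and *BCL2L2*, *BNIP3* and *BNIP3L* are lowest in Doxo+Cyta+DAC, and *BBC3* peaks in Doxo at 97.4 to 104 CPM.

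Downstream of the mitochondrion, all 10 listed genes were tested and 5 were called in Doxo+Cyta+DAC over NT (4 higher, 1 lower), 6 over Doxo (4 higher, 2 lower) and 5 over Doxo+Cyta (4 higher, 1 lower), near or below the 48.7%, 59.5% and 60.3% of all genes. *CYCS*, which encodes cytochrome c, was at 242 to 289 CPM there against 71.4 to 111 CPM in the 8 other libraries, a log2 difference of 1.27 over NT (SE 0.11, adjusted p = 2.06e-06). *APAF1*, the scaffold that cytochrome c joins to activate caspase 9, was at 17.7 to 22.7 CPM against 30.4 to 66.5 CPM elsewhere, a log2 difference of -1.47 against NT (SE 0.22, adjusted p = 0.000118). *ENDOG*, a mitochondrial nuclease, was higher than in Doxo by 1.74 (SE 0.37, adjusted p = 0.00103). Its rise over NT was 1.01 (SE 0.39, adjusted p = 0.046), and this call was lost with upper-quartile scaling (adjusted p = 0.0712), library totals (0.0704), a minimum of 10 counts in every library (0.0506), and without NT replicate 1 or 2 or Doxo+Cyta+DAC replicate 30 or 32 (0.0722 to 0.216). The inhibitor of apoptosis genes, which hold caspases back, gave 6 tested genes, of which 1 was called in Doxo+Cyta+DAC over NT, 1 over Doxo and 0 over Doxo+Cyta. They were *NAIP*, at -0.82 against NT (SE 0.29, adjusted p = 0.0325), and *BIRC2*, at -0.36 against Doxo with overlapping groups (SE 0.13, adjusted p = 0.0321). The *NAIP* call was lost without NT replicate 1 or 2 or Doxo+Cyta+DAC replicate 32 or 33 (0.0645 to 0.157), and that of *BIRC2* without Doxo replicate 5 or 6 or Doxo+Cyta+DAC replicate 30 (0.0968 to 0.163).

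In the death receptor pathway, which joins the family through BID, 13 of 14 genes were tested and 8 rose in Doxo+Cyta+DAC over NT with none lower. Over Doxo 8 were higher and 3 lower, and over Doxo+Cyta 7 were higher and 2 lower. Of all genes 48.7%, 59.5% and 60.3% were called in these comparisons, in either direction. *TNFRSF10B*, the TRAIL receptor DR5, had 1.59 and 1.97 CPM in NT, 8.79 to 11.8 CPM in Doxo, 1.96 to 7.07 CPM in Doxo+Cyta and 15.3 to 31.2 CPM in Doxo+Cyta+DAC. The log2 difference was 3.57 in Doxo+Cyta+DAC over NT (SE 0.46, adjusted p = 4.1e-05) and 2.48 in Doxo over NT (SE 0.46, adjusted p = 0.00656). The latter was 2.33 and 2.64 without NT replicate 1 or 2, and was not called in these fits with 1 NT library. *TNFSF10*, which encodes TRAIL, rose by 1.84 over NT (SE 0.37, adjusted p = 0.00111), with Doxo+Cyta+DAC replicate 31 at 10.7 CPM and the others at 4.66 to 5.2 CPM, and by 1.48 without that library. *RIPK1*, a kinase at the receptor complex, rose by 0.85 over NT (SE 0.24, adjusted p = 0.0104, and 0.112 without NT replicate 1). *TNFRSF10D*, a decoy receptor, was highest in Doxo, with 1.87 over NT (SE 0.17, adjusted p = 7.91e-05), and was also higher in Doxo+Cyta+DAC, with 0.67 over NT (SE 0.15, adjusted p = 0.00268).

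Of 13 transcription factors known to act on family genes, all were tested and 7 were called in Doxo+Cyta+DAC over NT (3 higher, 4 lower), 9 over Doxo (2 higher, 7 lower) and 7 over Doxo+Cyta (2 higher, 5 lower), beside 48.7%, 59.5% and 60.3% of all genes. *GATA1*, which drives *BCL2L1* in maturing red cells, was at 172 to 194 CPM in Doxo+Cyta+DAC against 266 to 421 CPM elsewhere (log2 difference -0.62 against NT, SE 0.11, adjusted p = 0.000505), while *BCL2L1* was not called. *MITF*, known to act on *BCL2* in melanocytes, was lower by -1.43 against NT (SE 0.35, adjusted p = 0.00386). *DDIT3*, the stress factor CHOP that can raise *BCL2L11*, was lower by -0.68 against NT (SE 0.19, adjusted p = 0.00939, and 0.143 without NT replicate 1). *E2F1* was higher by 1.63 over Doxo (SE 0.28, adjusted p = 0.000178) and by 0.84 over NT (adjusted p = 0.0355), the latter with an adjusted p of 0.0629 and 0.0654 under upper-quartile scaling and library totals, and of 0.0647 to 0.156 without NT replicate 1 or 2 or Doxo+Cyta+DAC replicate 30 or 32. Among 8 partners and turnover factors of family proteins, 4 rose over NT, 2 over Doxo and 4 over Doxo+Cyta, and none fell, beside the same shares of all genes.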

How the data were processed

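RNA from 12 libraries was read as paired ends of 100 bases. The deposited values are raw gene counts of read pairs, for which the authors ran featureCounts 1.6.0 on Bowtie2 2.2.8 alignments to GRCh38 without regard to strand, so that pairs placed at several sites or over several genes were dropped by its defaults. Bowtie2 does not split reads over exon junctions, which lowers counts in genes of short exons. Groups came from the sample labels. Of 26485 genes, 4 lacked a count and were left out. Counts were fitted in edgeR 4.0.16 (R 4.3.3) with filterByExpr, TMM scaling and 1 quasi-likelihood model over all 12 libraries, and p-values were two-sided and adjusted over 14164 genes in each of 6 comparisons. CPM were scaled by TMM factors, log2 CPM used a prior count of 2, and TPM used the deposited exon lengths. The fit was tested on simulated data. Library totals of 12763582 to 19106235 counts limit precision for genes under about 10 counts.

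The members and gene lists were chosen with earlier results of these data known. Named were all members, *BAX*, *BBC3*, *PMAIP1*, *BAD* and *BCL2L2*, at most 4 genes per list with an adjusted p under 0.05 and a fold over 2, and the 3 likest genes of members past the same limits; *ABALON*, *NAIP* and *BIRC2* were added after their values were seen. Alternatives were DESeq2 1.42.0, 3 other scalings, 2 other filters, fits of the 2 groups alone and leaving out each replicate. The labels do not say which libraries came from separate experiments, so p-values measure the spread between these libraries. Promoters are from RefSeq. The B-cell marker list is not reported here. A further untreated replicate named in the series text was not analysed here.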

Additional observations from a re-analysis of the deposited data

Results flagged for a closer look

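*TNFSF10* in Doxo+Cyta+DAC replicate 31, at 10.7 CPM, stood far from the other 3 libraries of its group, which lay between 4.66 and 5.2 CPM. The gap took 0.91 of the group's range, above Dixon's 95% critical value for 4 libraries. *BIRC2* in Doxo+Cyta+DAC replicate 30, at 44.5 CPM, lay below the other 3 libraries at 55.7 to 57.8 CPM, with a gap of 0.842 of the range. Of 31 genes looked at in this group these were the 2 marked, and chance marks about 1 in 20.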

How the results depend on the processing

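No paired analysis was possible because the groups share no replicate numbers. These counts leave out *BCL2A1*, whose direction the filter set and which no alternative called against NT. They also leave out fits with 1 NT library, where calls of members against NT were lost, as given for each gene above. Of the 2 members called in Doxo over NT, library totals gave 4, where 12.2% of all genes were called against 10.7%. Leaving out Doxo replicate 4 gave 3 (22.2% of all genes), and Doxo replicate 5 or 6 gave 1 (3.27% and 3.53%). The 1 call in Doxo+Cyta over NT became 0 with only the 2 groups compared (0.0951% of all genes, against 1.46%) and 2 with DESeq2 (5.9%). It became 0 without Doxo+Cyta replicate 19 or 22 (0.184% and 0.347%) and stayed 1 without replicate 20 (1.6%). The 3 calls in Doxo+Cyta+DAC over NT became 4 with library totals (48.1% of all genes, against 48.7%). They became 2 without Doxo+Cyta+DAC replicate 30, 31 or 33 and 1 without replicate 32 (44.4% to 46.7%). The calls of *BID*, *MCL1* and *BMF* in Doxo+Cyta+DAC over Doxo, and of *BID* and *BMF* over Doxo+Cyta, each held in 14 of 14 alternatives. That of *MCL1* in Doxo+Cyta over Doxo held in 13 of 13. The cause of the changes in the counts against NT was not tested. Where NT was left with 1 library, that library was assumed to vary like the other groups. Such fits called fewer of all genes in each comparison with NT, and why the call of a single gene was lost there was not tested. Library totals shifted the median log2 difference of all genes by -0.12 in Doxo over NT and by -0.10 in the other comparisons with NT.

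With *BCL2A1* set aside, no called log2 difference of a member took the other sign in any of these alternatives. Uncalled ones near 0 did. With upper-quartile scaling *BCL2L1* in Doxo+Cyta+DAC over NT was -0.02 (library totals -0.03), *BAK1* in Doxo+Cyta over Doxo 0.04 (library totals 0.01) and *BCL2L11* in Doxo+Cyta+DAC over Doxo -0.02 (-0.01 with at least 10 counts in every library). On leaving out 1 library, Doxo+Cyta+DAC over Doxo ran from -0.05 to 0.49 for *BCL2* and from -0.05 to 0.07 for *BCL2L11*. Over Doxo+Cyta it ran from -0.29 to 0.05 for *BCL2L1* and from -0.08 to 0.04 for *MCL1*. Over NT it ran from -1.22 to 0.00 for *BCL2A1*. Doxo+Cyta over NT ran from -0.01 to 0.34 for *BCL2L1* and from -0.28 to 0.04 for *BID*. Doxo+Cyta over Doxo ran from -0.21 to 0.33 for *BCL2*, from -0.18 to 0.17 for *BCL2L1*, from -0.63 to 0.10 for *BCL2A1*, from -0.11 to 0.06 for *BAK1* and from -0.06 to 0.35 for *BMF*. Some uncalled differences passed the threshold: *BCL2* in Doxo over NT with DESeq2 (adjusted p = 0.0288), library totals (0.0382) or no filter (0.037), *BCL2* in Doxo+Cyta over NT with DESeq2 (0.0371), and, with library totals, *MCL1* in Doxo+Cyta+DAC over NT (0.0439) and *BCL2L11* in Doxo over NT (0.0426). For the other pathway genes the same alternatives were added after seeing the data, and none of their called differences took the other sign. DESeq2 called 15.2% of genes in Doxo over NT and 5.9% in Doxo+Cyta over NT. Depth limits *BCL2A1*, *BIK* and *HRK*, and NT has only 2 libraries.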
